A study of Rattus norvegicus with 10 samples.

Results

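Changes shared by all BB-related groups were described in pancreatic islets of rats aged 40 days. Group means were averaged over DR+/+, JB and JBlyp/lyp (6 arrays), the average over F344 and F344lyp (4 arrays) was subtracted, and a change was common where the difference was called and had the same direction in each of the 3 BB groups. Of 31042 probe sets tested, 8781 (28.3%) had such a change, as did 4588 of 14217 genes (32.3%). The BB side held DR+/+ and JB islets, labelled as diabetes inducible and free of the lyp mutation, and islets of the diabetes-prone JBlyp/lyp rats, homozygous for it. The F344 side held F344 rats and F344lyp rats, both labelled healthy controls, of which the second carry lyp, so that lyp was present in 1 of 3 BB groups and 1 of 2 F344 groups. Each group had 2 arrays, labelled biological replicates, with no word on whether each came from 1 animal or from a pool. The growth protocol derives DR+/+ and JBlyp/lyp rats from DRlyp/+ parents, and the labels do not tie JB to DR. Islets were freed with collagenase and purified on a density gradient, from fasted animals and, per the protocol, males only. The series asks whether BB islets deal less well with oxidative stress than islets of other rats.

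The BB (BioBreeding) rat develops autoimmune diabetes, and lyp is a mutation of Gimap5 that removes most of its T cells. Islets are clusters of endocrine cells that lie within the acinar tissue of the pancreas, which makes digestive enzymes under the control of the transcription factor complex PTF1, and an islet preparation carries some of that tissue with it. The fast transcription factors of the Fos, Jun and Egr families respond to handling and stimulation of cells, and RT1 is the major histocompatibility complex of the rat, whose genes vary between strains.

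Replicates of a group correlated at 0.981 to 0.996 over the probe sets. The DR+/+ arrays stood apart, at 0.914 to 0.943 with every other array, while the JB and JBlyp/lyp arrays correlated at 0.954 to 0.976 with the F344 and F344lyp arrays. Each JB array correlated more closely with 1 JBlyp/lyp array (0.991 and 0.992) than the 2 JB arrays did with each other (0.985). The signal of Gapdh at its 3′ end over that at its 5′ end, a sign of RNA integrity, was 2.75 to 3.71 (log2) on the BB arrays, against 2.19 to 2.43 on the F344 arrays. These ranges do not overlap, so that RNA quality as read by Gapdh and strain cannot be told apart in any value below. The same difference for the actin control was 2.57 and 2.86 in DR+/+, 4.17 and 3.40 in JB and 3.43 and 3.30 in JBlyp/lyp islets. It was 3.06 and 2.95 in F344 and 2.72 and 2.77 in F344lyp islets, so the actin ranges of the BB and F344 sides overlapped. Actin was not used as a covariate. With the Gapdh difference of each array as a covariate, 8 probe sets were called for BB against F344 in place of 10300, among them those of Fam111a, Cuzd1 and RT1-Bb. The RMA level of Gimap5 was 8.22 and 8.41 in DR+/+, 7.05 and 5.95 in JB and 5.95 and 5.65 in JBlyp/lyp islets, against 7.03 and 6.82 in F344 and 5.96 and 6.02 in F344lyp islets. It was lower in F344lyp than in F344, and 1 JB array lay at the JBlyp/lyp level. Ins1 and Ins2, the insulin genes, were not called, at -0.09 and 0.04 on the log2 scale.

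For BB against F344, limma called 10300 of 31042 probe sets (33.2%) at an adjusted p under 0.05, 5019 higher and 5281 lower, and 1519 of them went the opposite way in at least 1 BB group. Of the 8781 common changes, 4175 (13.4%) were higher and 4606 (14.8%) lower. Called in each BB group on its own against the F344 groups were 2066 probe sets (6.66%), of which 868 probe sets (2.80%) were higher and 1198 (3.86%) lower. These 3 comparisons share their F344 arrays, and with 1 array left out the 2066 became 1027 for F344 replicate 1, 1229 for F344 replicate 2, 1268 for F344lyp replicate 2 and 1273 for JBlyp/lyp replicate 2. How far the groups of a side differ among themselves is not in the error of BB against F344, and 959 probe sets were called where group was a random block. Differences among the 3 BB groups were called for 9031 probe sets (29.1%), a count that was 5864 without DR+/+ replicate 1, 6020 without DR+/+ replicate 2 and 0 without both.

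Counted by gene, with the probe set of the highest mean level standing for each of 14217 genes, 1509 common changes (10.6%) were higher and 3079 (21.7%) lower, and the median difference of all genes was -0.04. In each of the 3 BB groups 1141 genes (8.03%) were called, of which 298 (2.10%) were higher and 843 (5.93%) lower, and the 6 BB arrays lay wholly above or below the 4 F344 arrays for 284 rises and 772 falls, together 1056 genes (7.43%). A difference of at least 1 (log2) in every BB group was seen for 58 of the 298 rises and 201 of the 843 falls, and one of at least 2 for 6 and 39. The falls were largest in DR+/+ for 533 genes (63.2%) and smallest in JBlyp/lyp for 466 (55.3%), with medians of -1.20 in DR+/+, -0.95 in JB and -0.81 in JBlyp/lyp. Medians of the rises were 1.01 in DR+/+, 0.88 in JB and 0.80 in JBlyp/lyp. Of the 1141 genes called in each group, 391 (34.3%) differed among the BB groups in limma's F test, against 35.4% of all genes.

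The gene with the largest rise was Fam111a, a serine protease that acts at replication forks and restricts some viruses. Its RMA level was 10.42 and 10.37 in DR+/+, 11.67 and 11.73 in JB and 11.97 and 11.68 in JBlyp/lyp islets, against 5.04 and 4.79 in F344 and 5.59 and 5.71 in F344lyp islets. The lowest BB array lay 4.65 above the highest F344 array, and the difference was 5.11 in DR+/+, 6.41 in JB and 6.54 in JBlyp/lyp islets. Ythdf2, a reader of methylated adenosine that speeds the decay of messenger RNA, was at 9.24 and 9.54 in DR+/+, 9.04 and 8.92 in JB and 9.46 and 8.99 in JBlyp/lyp islets, against 6.07 and 6.00 in F344 and 5.73 and 5.56 in F344lyp islets. It rose by 3.36 (SE 0.12, adjusted p = 1.32e-07). Dnajb6, a co-chaperone that keeps proteins from aggregating, read 10.15 and 10.19 in DR+/+, 10.35 and 10.10 in JB and 10.28 and 10.28 in JBlyp/lyp islets, against 7.32 and 6.67 in F344 and 7.31 and 6.88 in F344lyp islets. Its difference was nearly even over the BB groups, at 3.12 in DR+/+, 3.18 in JB and 3.23 in JBlyp/lyp.

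Cyp4v3, a fatty acid hydroxylase of the cytochrome P450 family, had 7.50 and 7.51 in DR+/+, 8.36 and 8.64 in JB and 8.52 and 8.97 in JBlyp/lyp islets, against 5.15 and 4.94 in F344 and 5.84 and 5.31 in F344lyp islets. All BB arrays lay above all F344 arrays, and the rise was 2.19 in DR+/+, 3.19 in JB and 3.44 in JBlyp/lyp islets. The other named rises were smaller, at 2.28 for Tsc22d2, 2.27 for Tbc1d12, 2.19 for the endocytic scaffold gene Itsn2, 2.12 for the peroxisomal membrane gene Pxmp4, 1.86 for the RNA export gene Thoc2, 1.79 for the nucleolar gene Nom1, 1.84 for Ccdc77 and 1.82 for Sh3bgrl1. The 15 largest rises also include RT1-T24-4 (2.345), RT1-Bb (2.26) and RT1-Ba (1.73), which are taken up below. RT1-Bb and RT1-Ba had other probe sets that fell. The F344lyp mean was above the F344 mean for 7 of the 15 genes, with a median F344lyp minus F344 difference of -0.02. All 15 kept an adjusted p under 0.05 with group as a random block, the highest for BB against F344 in limma being 0.000589.

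**Figure D1:**
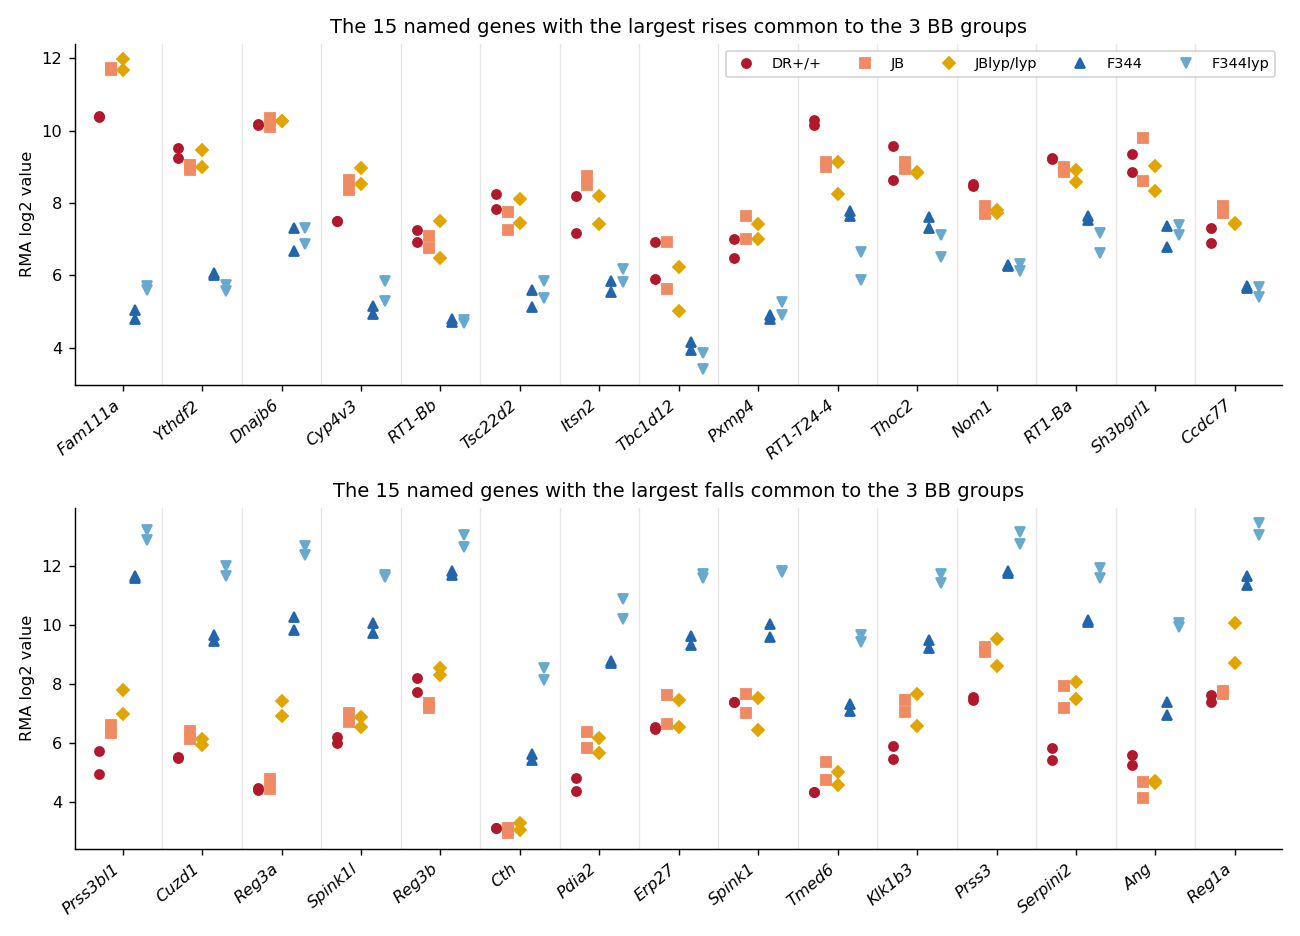
RMA log2 value of each of the 10 arrays for the 15 named genes with the largest common rises (top) and falls (bottom), with 2 points per group and the BB groups left of the F344 groups. No BB array overlaps an F344 array for any of the 30 genes, as their selection required. In the falls the F344lyp points lie above the F344 points for all 15 genes.

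Most of the largest falls were of genes of the exocrine pancreas. Prss3bl1, a gene named for its likeness to trypsinogen, was at 5.75 and 4.96 in DR+/+, 6.36 and 6.63 in JB and 7.00 and 7.80 in JBlyp/lyp islets, against 11.69 and 11.60 in F344 and 12.91 and 13.24 in F344lyp islets. It fell by 5.94 (SE 0.19, adjusted p = 9.09e-08), and the highest BB array lay 3.80 below the lowest F344 array. Cuzd1, a protein of the zymogen granule membrane, read 5.51 and 5.53 in DR+/+, 6.41 and 6.16 in JB and 5.95 and 6.15 in JBlyp/lyp islets, against 9.68 and 9.46 in F344 and 11.67 and 12.01 in F344lyp islets. Every F344lyp array was above every F344 array, and every F344 array above every BB array. The trypsin inhibitor gene Spink1 had 7.39 and 7.40 in DR+/+, 7.66 and 7.04 in JB and 7.53 and 6.44 in JBlyp/lyp islets, against 10.03 and 9.61 in F344 and 11.82 and 11.86 in F344lyp islets. Its difference was -3.44 in DR+/+, -3.48 in JB and -3.85 in JBlyp/lyp islets, and of its other probe sets 1 fell by 3.47 and 1 by 1.003, the second with overlapping arrays and no call with group as a random block (adjusted p = 0.293). The other exocrine genes named were Spink1l (-4.23), the disulfide isomerase Pdia2 of acinar cells (-4.11), the trypsinogen gene Prss3 (-3.79), the serpin gene Serpini2 (-3.95) and the kallikrein gene Klk1b3 (-3.79).

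Reg3a, a lectin that the gut and pancreas secrete, was at 4.50 and 4.42 in DR+/+, 4.47 and 4.79 in JB and 7.45 and 6.92 in JBlyp/lyp islets, against 10.28 and 9.84 in F344 and 12.39 and 12.70 in F344lyp islets. The JBlyp/lyp arrays lay between the other BB arrays and the F344 arrays, with differences of -6.85 in DR+/+, -6.67 in JB and -4.12 in JBlyp/lyp. Reg1a fell by 4.18 and Reg3b by 4.42, and all 4 Reg genes measured had a common fall (median -4.30). Cth, which makes cysteine from cystathionine, differed from these in being flat over the BB groups. Its RMA level was 3.14 and 3.15 in DR+/+, 3.12 and 2.96 in JB and 3.29 and 3.06 in JBlyp/lyp islets, against 5.64 and 5.42 in F344 and 8.15 and 8.57 in F344lyp islets. The 6 BB values lay among the lowest 4.24 to 10.9% of probe sets of their arrays, near the lowest signal the arrays give, and the fall was 3.83 (differences of -3.80 in DR+/+, -3.91 in JB and -3.77 in JBlyp/lyp). Erp27, an endoplasmic reticulum protein of the pancreas, fell by 3.69, the cargo transport gene Tmed6 by 3.63 and the ribonuclease gene Ang by 3.75. For all 15 named falls the F344lyp mean was above the F344 mean, by 1.07 to 2.83 (median 2.02). Over the 772 falls with separate arrays it was above it for 623 (median 0.25), and over all genes for 7800 of 14217 (median 0.04).

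**Figure D2:**
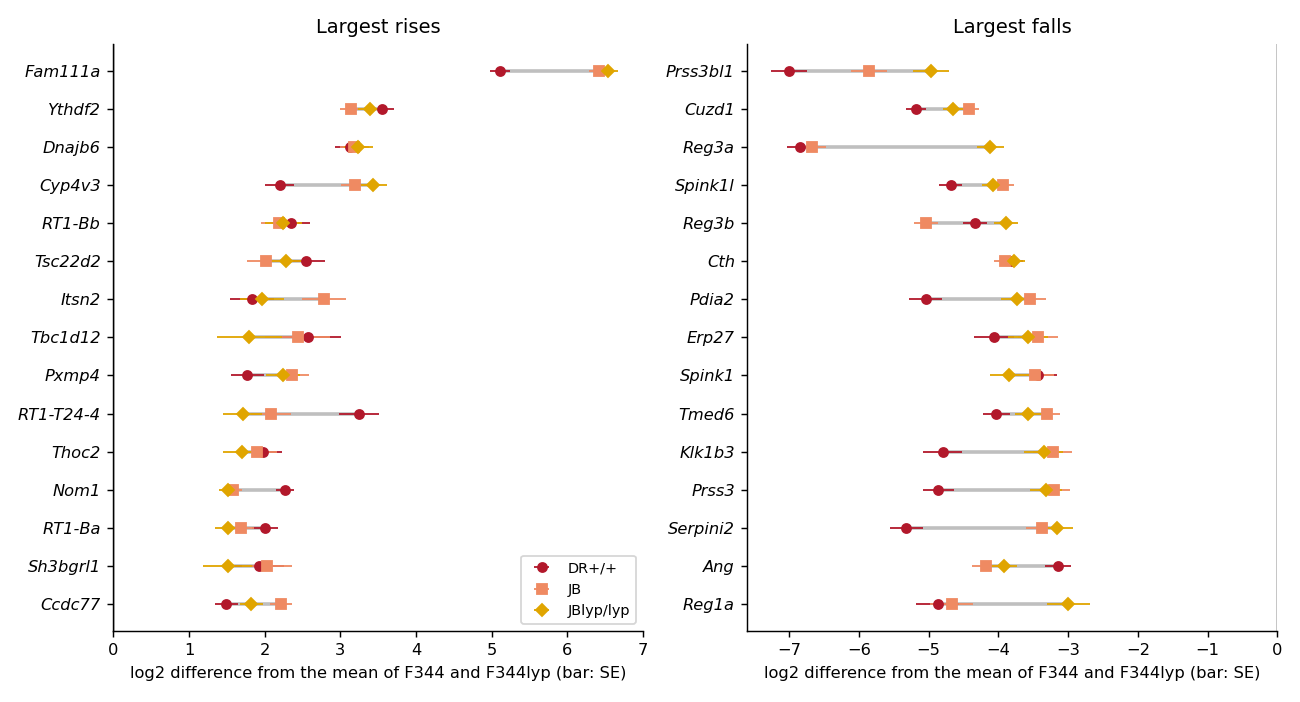
Log2 difference of DR+/+, JB and JBlyp/lyp from the mean of F344 and F344lyp, with its SE, for the 15 largest named rises and the 15 largest named falls, ordered by the smallest of the 3 differences. Dnajb6 and Cth have nearly the same value in the 3 groups, while Reg3a spans -6.85 to -4.12 and Serpini2 -5.32 to -3.16.

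Among acinar genes 32 of 34 measured had a common fall and 0 a common rise, at a median of -2.39 (-3.17 in DR+/+, -1.81 in JB and -2.14 in JBlyp/lyp), and 30 fell in each BB group. The 32 stayed 32 without any single array and without the DR+/+ arrays. The mean RMA level of the list was 8.79 to 9.89 on the 6 BB arrays, against 11.16 to 12.31 on the 4 F344 arrays, and its summed level (log2) was 15.27 to 16.56 in BB, against 17.52 to 18.26 in F344. Klk1 (0.01) and Nr5a2 (-0.85) were the 2 genes without a common change. In whole islet preparations fewer cells of a type and less RNA per cell cannot be told apart, and how far acinar tissue enters the other falls was not tested. Ptf1a, which encodes the DNA-binding subunit of PTF1 that is particular to the pancreas, fell by 2.49 and is named after its value was seen. A PTF1 site joins an E-box to a TC-box, and CACCTG followed after 4 bases of any kind by TTTCCC was searched on both strands of the 250 bases before each gene start in RefSeq (GRCr8). It was found in 8 of 27457 promoters (0.0291%) and in 3 of the 27 acinar genes with a promoter (11.1%). Those 3 are shown because their genes fell in each BB group, with differences of -1.62 for the elastase gene Cela1, -2.005 for the chymotrypsinogen gene Ctrb1 and -3.47 for the trypsinogen gene Prss2. Of the other holders of the motif, Arpc2 (0.05) and Drc12 (0.18) were measured and not called in each BB group, and the rest had no probe set. The call of Ctrb1 ended with group as a random block (adjusted p = 0.0982). The capitals mark the motif, which in Prss2 lies on the opposite strand.
Cela1: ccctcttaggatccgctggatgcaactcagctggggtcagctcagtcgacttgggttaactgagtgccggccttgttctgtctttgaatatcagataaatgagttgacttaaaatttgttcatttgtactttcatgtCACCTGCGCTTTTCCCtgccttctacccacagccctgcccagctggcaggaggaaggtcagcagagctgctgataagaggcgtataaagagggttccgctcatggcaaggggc
Ctrb1: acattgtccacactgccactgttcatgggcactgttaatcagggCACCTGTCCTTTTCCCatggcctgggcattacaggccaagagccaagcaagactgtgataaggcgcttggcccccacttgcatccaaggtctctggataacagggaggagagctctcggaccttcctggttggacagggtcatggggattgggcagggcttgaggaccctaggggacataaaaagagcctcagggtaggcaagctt
Prss2: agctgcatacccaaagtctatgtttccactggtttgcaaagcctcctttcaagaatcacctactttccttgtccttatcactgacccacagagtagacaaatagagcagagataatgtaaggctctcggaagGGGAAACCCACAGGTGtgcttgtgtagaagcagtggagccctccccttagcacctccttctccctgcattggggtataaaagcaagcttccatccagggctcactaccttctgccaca
They lie at chr7:133665062-133665311 on the minus strand, chr19:56566979-56567228 on the minus strand and chr4:71244714-71244963 on the plus strand. A match is a description of these letters and not a bound site.

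Several genes of the exocrine falls lie side by side. Of 13915 genes placed in their RefSeq order, 1311 (9.42%) had a probe set called in each BB group with separate arrays, and 14 runs of at least 3 such neighbours held 46 genes. How many such runs a random order of genes would give was not tested, so the count is a description. The longest, of 6, was the trypsin cluster, where the fall of the measured probe sets ranged from 0.85 for Prss3b to 5.94 for Prss3bl1, with 1.35 for Prss1. The run of Reg3b, Reg3a and Reg1a and that of the lipase genes Pnlip, Pnliprp1 and Pnliprp2 also fell throughout. Other runs mixed directions. Next to Cth, the prostaglandin receptor gene Ptger3 fell by 2.67, while Ankrd13c rose by 0.57 and a probe set of the splicing factor gene Srsf11 by 1.62. Ptger3 read 6.01 and 6.24 in DR+/+, 4.80 and 4.65 in JB and 5.20 and 4.96 in JBlyp/lyp islets, against 6.38 and 6.48 in F344 and 9.32 and 9.71 in F344lyp islets, with F344lyp well above every other group. With group as a random block the calls of Ptger3 (adjusted p = 0.0604), Ankrd13c (0.0874), Srsf11 (0.0795), Fat1 (0.144) and Prss1 (0.09) ended. Next to Cyp4v3, the plasma kallikrein gene Klkb1 fell evenly, at -2.37 in DR+/+, -2.41 in JB and -2.37 in JBlyp/lyp, and the cadherin gene Fat1 rose by 0.72. Klkb1 had 2.70 and 3.07 in DR+/+, 2.89 and 2.82 in JB and 2.80 and 2.98 in JBlyp/lyp islets, against 5.32 and 5.25 in F344 and 5.22 and 5.24 in F344lyp islets. Its BB values lay among the lowest 1.13 to 5.97% of probe sets. Genes of a run outside the largest changes are named for their place.

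A gene can carry several probe sets, each reading another stretch of its transcript, which gives a check within the arrays. Of 4525 genes with 2 or more probe sets, 588 had at least 1 that was called in each BB group with separate arrays, and 520 of these had exactly 1. All probe sets met this in the same direction for 8 genes upward and 13 genes downward, and 10 genes had probe sets in both directions. Among the largest named rises, 9 genes had 16 further probe sets, of which 2 met it in the same direction and 3 in the opposite one. For BB against F344 in limma the second probe set of Cyp4v3 was not called, at 0.31 (adjusted p = 0.0673). Nor was that of Ythdf2, at 0.15 (adjusted p = 0.29), but it differed by group. It was called lower in DR+/+ (-0.62, adjusted p = 0.00507) and higher in JB (0.55, 0.0205) and JBlyp/lyp (0.53, 0.0316).

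The genes whose probe sets all rose include Lig4, the ligase of DNA end joining, with 1.96 and 1.13, and Nr4a2, an orphan nuclear receptor of the fast response, with 1.33 and 1.32. Frzb, a secreted Wnt antagonist, rose by 1.90 and 1.42, and Tcf4, a helix-loop-helix transcription factor, by 1.40 and 1.58. Dusp6, a phosphatase that switches off the kinase ERK, rose at 3 probe sets, by 0.77, 1.69 and 1.72. Frzb was at 8.96 and 8.95 in DR+/+, 9.54 and 10.19 in JB and 9.23 and 10.32 in JBlyp/lyp islets, against 7.66 and 7.88 in F344 and 7.15 and 7.84 in F344lyp islets. The genes whose probe sets all fell include Tmem97, a sterol-regulated membrane protein, at -1.88 and -2.46, Pop5, a subunit of ribonuclease P, at -1.74 and -1.71, and Sdhd, the membrane anchor of respiratory complex II, at -1.03 and -0.79. With group as a random block 1 probe set of each of 4 genes lost its call, the one at 1.13 for Lig4 (adjusted p = 0.0879), at 1.40 for Tcf4 (0.0752), at -1.03 for Sdhd (0.0594) and at 1.72 for Dusp6 (0.0604). The other probe sets named here were still called.

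Probe sets of 1 gene in opposite directions were clearest at Lysmd4, a LysM domain gene. One of its probe sets read 7.51 and 7.38 in DR+/+, 7.39 and 7.55 in JB and 7.31 and 7.81 in JBlyp/lyp islets, against 4.82 and 4.46 in F344 and 4.44 and 4.03 in F344lyp islets, a rise of 3.06. The other 3 fell by 1.73, 1.64 and 1.65, and every 1 of the 4 kept BB and F344 arrays apart. RT1-Bb, the beta chain of a class II molecule, had 1 probe set at 7.27 and 6.92 in DR+/+, 7.10 and 6.77 in JB and 7.49 and 6.48 in JBlyp/lyp islets, against 4.71 and 4.79 in F344 and 4.77 and 4.70 in F344lyp islets. Its other probe set read 3.65 and 3.33 in DR+/+, 3.50 and 3.26 in JB and 3.60 and 3.27 in JBlyp/lyp islets, against 8.35 and 8.24 in F344 and 9.21 and 9.32 in F344lyp islets. The first rose by 2.26 and the second fell by 5.35, and the BB values of the second lay among the lowest 9.52 to 17.7% of probe sets of their arrays, near the lowest signal the arrays give. No direction is given for the gene. RT1-Ba, its alpha chain, had 1 probe set higher by 1.73 and 2 lower, by 2.90 and 0.75, each called in every BB group with separate arrays. Its remaining probe set was not called in limma, at -0.21 (adjusted p = 0.147). The fall of 0.75 was no longer called with group as a random block (adjusted p = 0.0782). For the splicing coactivator gene Srrm2 the values were 1.26 and -1.06, for the endosomal sorting gene Chmp1b 0.50 and -1.34, and for the corepressor gene Ncor1 0.81 and -1.03. With group as a random block the fall of Srrm2 (adjusted p = 0.0582), the rise of Chmp1b (0.129) and the fall of Ncor1 (0.0847) were no longer called, so the opposite directions were not both kept. Azi2, Eef2k, Fgl2 and Pcgf2 complete the 10, and in that fit neither direction was called for Azi2 (adjusted p = 0.0674 and 0.122), Fgl2 (0.0939 and 0.0617) or Pcgf2 (0.16 and 0.0632). Whether strain variants lie under these probes was not tested.

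**Figure D3:**
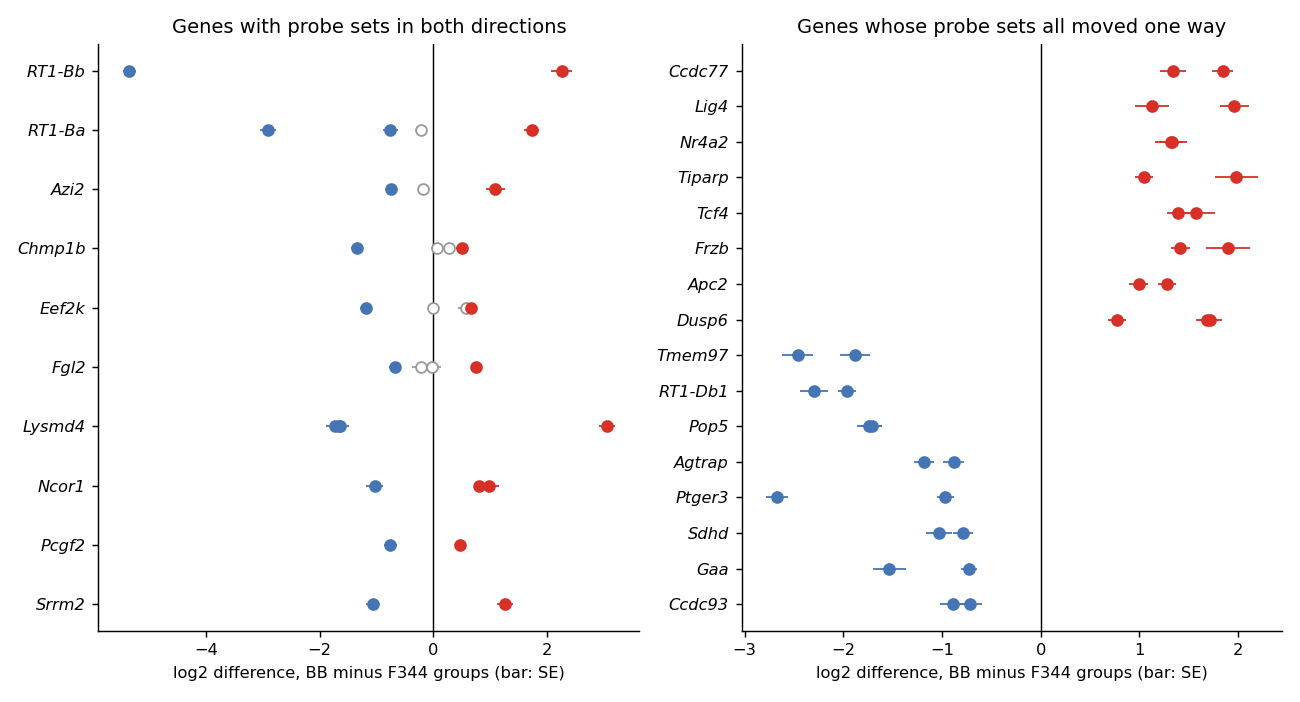
Log2 difference (BB groups minus F344 groups, with SE) of every probe set of the 10 genes with probe sets in both directions (left) and of the 16 named genes whose probe sets all moved 1 way (right). Filled points were called in each BB group with separate arrays, red for higher and blue for lower, and open points were not. The widest span is that of RT1-Bb, from -5.35 to 2.26.

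Probe sets without a single gene symbol made up 396 of the 868 rises called in each BB group (45.6%) and 152 of the 1198 falls (12.7%), against 32.9% of all probe sets tested. The counts by gene thus leave out more of the rises than of the falls.

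Gene lists were read by their counts of common changes beside the 10.6% higher and 21.7% lower of all genes, and by their median beside -0.04. These shares are from the fit with all arrays and cover genes of every level. In a fit of the 15521 probe sets above the median level 6103 were common, a larger share than 8781 of 31042. Without the DR+/+ arrays 7158 of 31042 were common. No share of all genes was taken for the counts with arrays left out, or for genes of like level. Antioxidant genes, which the series asks about, had 22 common falls and 0 common rises among 41 measured (18 to 23 falls with 1 array left out, 20 without the DR+/+ arrays), at a median of -0.57. Called in each BB group were 5 of these falls. Prdx4, a peroxiredoxin of the endoplasmic reticulum, was at 8.56 and 8.54 in DR+/+, 8.96 and 8.38 in JB and 9.02 and 8.20 in JBlyp/lyp islets, against 9.80 and 9.64 in F344 and 11.13 and 11.51 in F344lyp islets. It fell almost evenly, with differences of -1.97 in DR+/+, -1.85 in JB and -1.91 in JBlyp/lyp, and F344lyp lay above F344. Msrb1, a selenoprotein that repairs oxidised methionine, had 7.31 and 7.31 in DR+/+, 7.44 and 7.44 in JB and 7.45 and 7.37 in JBlyp/lyp islets, against 8.33 and 8.43 in F344 and 8.29 and 8.58 in F344lyp islets, with no such step between the F344 groups. It fell by 1.02 (SE 0.09, adjusted p = 4.17e-05). Prdx5 fell by 0.85 and the superoxide dismutase genes Sod2 and Sod3 by 0.61 and 0.83. Under a random block on group the calls of Sod2 and Sod3 ended (adjusted p between 0.0722 and 0.0773).

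Genes of cysteine and glutathione supply and of the glutathione transferases had 21 common falls and 2 common rises among 40 measured (19 to 22 falls and 1 to 2 rises with 1 array left out), at a median of -0.56, and 15 fell in each BB group. Cbs, which makes the cystathionine that Cth splits, was at 5.20 and 4.84 in DR+/+, 5.09 and 5.24 in JB and 5.10 and 5.63 in JBlyp/lyp islets, against 6.39 and 6.58 in F344 and 8.48 and 8.22 in F344lyp islets. The BB arrays were all lower, and the F344lyp arrays were highest. Gnmt, which uses up methyl groups of methionine, fell by 2.19 (SE 0.14, adjusted p = 6.03e-06), and Ggt1, which breaks down glutathione outside the cell, fell by 2.04 (SE 0.13, adjusted p = 6.14e-06). Gstm2, a glutathione transferase, fell evenly, with differences of -1.55 in DR+/+, -1.66 in JB and -1.68 in JBlyp/lyp. In the random-block fit the adjusted p was between 0.00668 and 0.026, and no call of these 5 ended. The mean RMA level of the acinar list moved with both lists, and its part in them was not tested.

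Genes of the secretory route fell less evenly. Those for entry into the endoplasmic reticulum had 20 common falls of 38 (10 without the DR+/+ arrays), with medians of -1.12 in DR+/+, -0.31 in JB and -0.11 in JBlyp/lyp. Ssr4, a subunit of the translocon-associated complex, was at 8.17 and 8.01 in DR+/+, 10.05 and 10.31 in JB and 10.62 and 10.45 in JBlyp/lyp islets, against 11.04 and 10.76 in F344 and 11.36 and 11.55 in F344lyp islets. DR+/+ was far below the other BB groups (F test adjusted p = 1.14e-05). Vesicle transport genes had 21 common falls of 37 (13 without DR+/+) and folding genes 11 of 33 (5 without DR+/+, where 5 rose), with 0 common rises in both. Sel1l, of the pathway that returns misfolded proteins for breakdown, fell by 1.28, and the small GTPase gene Arf5 by 1.65. Transfer RNA synthetase genes had 15 common falls of 21 (4 without DR+/+). Ribosomal protein genes had 13 of 37 (20 with JBlyp/lyp replicate 1 left out, 8 with JBlyp/lyp replicate 2 or F344 replicate 1 left out, 7 with F344lyp replicate 2 left out and 4 without DR+/+), among them Rpl6 at -1.26 and Rpl11 at -1.18. When group entered as a random block the calls of Ssr4, Rpl6 and Rpl11 ended (adjusted p between 0.0579 and 0.153).

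Of 65 genes of the mitochondrial respiratory chain and ATP synthase, 50 had a common fall and 1 a common rise (38 to 58 falls and 0 to 1 rises with 1 array left out, 33 without DR+/+), at medians of -1.06 in DR+/+, -0.61 in JB and -0.47 in JBlyp/lyp. Ndufa2, a subunit of complex I, had 8.67 and 8.62 in DR+/+, 9.28 and 8.65 in JB and 9.46 and 8.50 in JBlyp/lyp islets, against 10.30 and 9.82 in F344 and 10.06 and 10.10 in F344lyp islets. The BB arrays were lower than all F344 arrays, and JBlyp/lyp replicate 2 was the lowest. The complex I gene Ndufa13 fell by 1.37, and Atp5mg and Atp5f1d of the ATP synthase by 1.58 and 1.79. Glycolysis genes had 13 common falls of 18 and 0 rises (13 to 14 falls with 1 array left out). Tpi1, triosephosphate isomerase, read 8.19 and 7.74 in DR+/+, 7.79 and 8.40 in JB and 8.44 and 8.79 in JBlyp/lyp islets, against 9.69 and 9.68 in F344 and 9.33 and 9.75 in F344lyp islets, and it fell by 1.39 (SE 0.16, adjusted p = 0.000173). The phosphofructokinase genes Pfkl and Pfkp fell by 1.19 and 0.92. Citric acid cycle and fatty acid oxidation genes had 22 common falls of 45, which were 12 without F344 replicate 1, 13 without F344 replicate 2, 10 without F344lyp replicate 2 and 7 without DR+/+. With group as a random block the calls of Ndufa2, Atp5mg, Atp5f1d and Pfkp ended (adjusted p between 0.0583 and 0.0809).

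Genes of protein breakdown, of the lysosome and of cholesterol synthesis also fell in part. Proteasome genes had 21 common falls and 2 rises of 35 (12 falls without DR+/+). Psmb10, a catalytic subunit of the immunoproteasome, was at 6.77 and 6.75 in DR+/+, 6.48 and 6.48 in JB and 6.83 and 6.70 in JBlyp/lyp islets, against 8.18 and 8.01 in F344 and 8.53 and 8.33 in F344lyp islets, and its difference was -1.50 in DR+/+, -1.78 in JB and -1.50 in JBlyp/lyp islets. Psma5, of the core ring, fell by 0.91. Lysosome genes had 25 common falls and 2 rises of 48 (15 and 6 without DR+/+, with the rises at 1 without F344 replicate 1, F344 replicate 2, F344lyp replicate 1 or F344lyp replicate 2). Ctsd, the protease cathepsin D, fell by 1.25 and Ctss, cathepsin S, by 0.88. Cholesterol synthesis genes had 10 common falls of 25 (5 without DR+/+) and 2 rises (0 to 3 with 1 array left out), with Mvk at -0.92 and Mvd at -0.89. Under a random block on group the call of Mvd ended (adjusted p = 0.0795).

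Immediate early genes went the other way, with 19 common rises and 3 common falls among 39 (17 to 20 rises with 1 array left out, 16 without DR+/+) and a median of 0.44. The median was 0.69 in DR+/+ and 0.53 in JB but 0.14 in JBlyp/lyp, and 8 rose and 1 fell in each BB group. The 3 falls became 1 without DR+/+ replicate 2 or any single array of the F344 side. Fosb, an AP-1 transcription factor, was at 10.69 and 10.54 in DR+/+, 11.56 and 12.29 in JB and 10.70 and 11.57 in JBlyp/lyp islets, against 9.78 and 9.83 in F344 and 8.43 and 8.54 in F344lyp islets. The BB arrays were all higher, and F344lyp was the lowest group. Egr1, a zinc finger transcription factor, had 12.63 and 12.57 in DR+/+, 12.19 and 12.76 in JB and 11.64 and 12.06 in JBlyp/lyp islets, against 11.35 and 11.33 in F344 and 10.37 and 10.74 in F344lyp islets. It rose by 1.36 (SE 0.14, adjusted p = 0.000105), and Jun and Jund, partners of the Fos proteins, rose by 1.12 and 0.89. The CArG box, the site of serum response factor, was found in 5 of the 28 promoters of these genes (Egr1, Egr2, Klf6, Dusp5 and Zfp36; 17.9%) and in 412 of all 27457 (1.50%). The 250 bases before the Egr1 start in RefSeq (GRCr8), at chr18:26736828-26737077 on the plus strand, are shown with both of its boxes in capitals.
Egr1: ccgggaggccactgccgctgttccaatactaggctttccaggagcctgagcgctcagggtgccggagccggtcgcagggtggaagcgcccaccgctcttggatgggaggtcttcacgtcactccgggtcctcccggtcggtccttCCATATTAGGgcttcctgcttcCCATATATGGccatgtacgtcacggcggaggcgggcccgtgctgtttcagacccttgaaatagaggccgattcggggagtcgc
Of the other 4, Egr2 (1.30) and Klf6 (1.50) had a common rise and Zfp36 (-0.27) a common fall, and Dusp5 (0.14) had neither. The calls of Egr2, Klf6 and Zfp36 ended with group as a random block (adjusted p of 0.229, 0.141 and 0.473). In the random-block fit the call of Jun ended (adjusted p = 0.0558).

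Splicing and RNA-binding genes had 20 common rises and 10 common falls of 55 (14 to 27 rises with 1 array left out, 5 falls without DR+/+), at a median of 0.25. Sf3b1, of the U2 particle, was at 11.27 and 11.08 in DR+/+, 10.84 and 11.17 in JB and 10.74 and 10.75 in JBlyp/lyp islets, against 10.09 and 10.18 in F344 and 10.12 and 10.31 in F344lyp islets. The kinase gene Clk1, which acts on splicing factors, rose by 0.79 and Srsf3 by 1.52. Circadian clock genes had 6 common rises of 20 (4 to 7 with 1 array left out) and 2 falls (1 to 3). Per2, a repressor of the clock, read 8.83 and 9.08 in DR+/+, 8.54 and 8.78 in JB and 8.49 and 8.71 in JBlyp/lyp islets, against 7.23 and 7.34 in F344 and 7.71 and 7.99 in F344lyp islets, a rise of 1.39 in DR+/+, 1.09 in JB and 1.04 in JBlyp/lyp. Per3 rose by 1.11. The time of day of tissue collection was not given in the sources used here. Heat shock and chaperonin genes had 4 common rises and 10 falls of 40. The falls were 5 without F344 replicate 1 or 2, 4 without F344lyp replicate 2 and 3 without DR+/+, and the rises were 2 without F344lyp replicate 1 and 8 without DR+/+. Hsf2, a heat shock transcription factor, rose by 0.83 and Bag1, a partner of Hsp70, fell by 0.58. When group entered as a random block the calls of Clk1, Srsf3 and Bag1 ended (adjusted p between 0.0685 and 0.0842).

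Genes of antigen presentation had 4 common rises and 12 common falls of 20, and leaving out F344 replicate 1 or F344lyp replicate 2 brought the falls to 7. The 4 rises were RT1-T24-4, a class I gene, RT1-Ba and RT1-Bb on the probe sets with the highest mean, and the peptide trimming gene Erap1 (0.61, adjusted p = 0.173 with group as a random block), named after its value was seen. RT1-T24-4 was at 10.29 and 10.16 in DR+/+, 9.13 and 8.99 in JB and 8.24 and 9.14 in JBlyp/lyp islets, against 7.63 and 7.77 in F344 and 5.87 and 6.65 in F344lyp islets, with DR+/+ above the other BB groups. RT1-Db1, a class II beta chain, fell at both probe sets, by 1.96 and 2.29. Cd74, the invariant chain that accompanies class II molecules, fell by 1.19. Interferon response genes had 16 common falls of 38 (15 to 16 with 1 array left out, 23 without DR+/+) and 2 rises (1 to 2). Their medians were -0.03 in DR+/+, -0.59 in JB and -0.63 in JBlyp/lyp. In DR+/+ 9 were called higher and 10 lower, and 8 fell and 1 rose in each BB group. Ifi27 had 8.58 and 8.65 in DR+/+, 8.99 and 8.74 in JB and 9.11 and 8.84 in JBlyp/lyp islets, against 10.84 and 10.70 in F344 and 11.08 and 11.13 in F344lyp islets, and its difference was -2.33 in DR+/+, -2.07 in JB and -1.96 in JBlyp/lyp islets. Irgm, an immunity-related GTPase, rose by 1.47 (SE 0.17, adjusted p = 0.000201), while the antiviral gene Mx1 fell by 1.46 and Usp18, which removes Isg15, by 1.02. With group as a random block the call of Cd74 ended (adjusted p = 0.0582).

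Macrophage and dendritic cell markers had 15 common falls and 1 common rise of 23 (14 to 15 falls and 0 to 1 rises with 1 array left out), at a median of -0.71. The mean RMA level of the list was 5.61 to 5.78 on the 6 BB arrays, against 6.18 to 6.44 on the 4 F344 arrays. Its summed level (log2) was 11.28 to 11.81 in BB, against 12.25 to 12.65 in F344. C1qa, a chain of the first complement component that macrophages make, was at 4.93 and 5.38 in DR+/+, 6.43 and 6.14 in JB and 6.98 and 6.78 in JBlyp/lyp islets, against 8.02 and 7.95 in F344 and 8.28 and 8.38 in F344lyp islets. Its neighbours C1qb and C1qc, which belong to the complement list too, fell by 0.98 and 2.27. Lyz2, a lysozyme of myeloid cells, fell by 1.21, the receptor gene Mrc1 by 1.25 and Fcer1g, a signalling chain of Fc receptors, by 1.02. Complement and coagulation genes had 12 common falls of 33 (10 to 13 with 1 array left out) and 5 rises (3 without JBlyp/lyp replicate 2, F344 replicate 1 or F344 replicate 2, 2 without DR+/+), with Cfd at -2.08 and Cfi at -1.97. T cell markers had 4 common falls of 20 (2 without F344 replicate 1, 7 without JB replicate 1, 9 without DR+/+) and B cell markers 0 of 7. Mast cell markers had 5 common falls of 11 (5 without any single array), among them Mcpt1l1, a mast cell protease gene, at 4.55 and 4.15 in DR+/+, 3.40 and 3.91 in JB and 4.22 and 4.003 in JBlyp/lyp islets, against 4.78 and 4.92 in F344 and 7.56 and 8.03 in F344lyp islets. The step there is mostly between F344lyp and all other groups. Under a random block on group the calls of Lyz2, Cfi and Mcpt1l1 ended (adjusted p between 0.051 and 0.0778).

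Among genes of islet cells, the share of common falls was above the 21.7% of all genes for hormone, exocytosis and cell marker lists, and each of these counts was lower without the DR+/+ arrays. Islet transcription factor genes had 3 common falls and 0 rises of 22, with medians of -0.90 in DR+/+, 0.43 in JB and 0.44 in JBlyp/lyp, and without DR+/+ 10 rose and 1 fell. The 3 falls were 1 without F344 replicate 1. Pdx1, which maintains beta cells, was at 7.05 and 6.80 in DR+/+, 8.86 and 8.36 in JB and 8.73 and 8.20 in JBlyp/lyp islets, against 9.46 and 9.31 in F344 and 9.36 and 9.50 in F344lyp islets. It was lower in all BB arrays, and most so in DR+/+ (-2.48 in DR+/+, -0.80 in JB and -0.94 in JBlyp/lyp). Beta cell markers had 4 common falls of 11 (2 without DR+/+, where 2 rose). Hormone and receptor genes had 7 common falls of 21 (4 without F344 replicate 1, and 5 with 6 rises without DR+/+). Gcgr and Gipr, the glucagon and GIP receptors, fell by 1.34 and 1.20. Exocytosis genes had 13 common falls of 34 (6 without DR+/+, where 6 rose). Ptprn2, a protein of the secretory granule and target of autoantibodies in human diabetes, had 6.95 and 6.91 in DR+/+, 9.15 and 8.94 in JB and 9.46 and 9.08 in JBlyp/lyp islets, against 10.68 and 10.90 in F344 and 11.08 and 11.13 in F344lyp islets. DR+/+ was lowest, and JB and JBlyp/lyp still lay below F344. Markers of alpha, delta and PP cells had 3 common falls of 8 (1 without JBlyp/lyp replicate 2, F344 replicate 1 or DR+/+), with the thyroxine carrier gene Ttr at -1.36. Ion channel genes had 5 common rises of 29 (3 without F344lyp replicate 1, 10 without DR+/+) and 1 fall (1 to 3 with 1 array left out). Ryr2, a calcium release channel, rose by 1.48 (SE 0.10, adjusted p = 8.09e-06) and Itpr1, the receptor for inositol trisphosphate, rose by 0.84 (SE 0.13, adjusted p = 0.000972). In the random-block fit the calls of Pdx1, Gcgr, Gipr and Itpr1 ended (adjusted p between 0.0581 and 0.153).

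Among other cell types the preparations could hold, endothelial markers had 8 common rises and 1 common fall of 15 (6 to 9 rises with 1 array left out, 5 without DR+/+, where 3 fell), with medians of 1.29 in DR+/+, 0.33 in JB and 0.17 in JBlyp/lyp. Their mean RMA level was 8.33 to 9.62 on the 6 BB arrays, against 8.11 to 8.41 on the 4 F344 arrays. Sox17, an endothelial transcription factor, read 9.71 and 9.89 in DR+/+, 7.39 and 8.08 in JB and 7.14 and 7.18 in JBlyp/lyp islets, against 6.38 and 6.54 in F344 and 5.44 and 5.99 in F344lyp islets. DR+/+ was highest, with the other BB groups between it and F344. Erg rose by 1.02, Plvap, of the fenestrated endothelium, by 0.82, and Vwf fell by 1.01. Stellate cell and fibroblast markers had 6 common rises and 4 falls of 21 (2 and 7 without DR+/+), with medians of 1.10 in DR+/+, -0.23 in JB and -0.30 in JBlyp/lyp. In each BB group 1 rose and 2 fell, and of the falls Des, the muscle filament desmin, was at -1.29. Duct markers had 3 common falls of 13 (8 without DR+/+) and 1 rise (0 to 1 with 1 array left out), with Tff2, which the acinar list holds too, at -3.19. The duct medians were 0.55 in DR+/+, -0.62 in JB and -0.59 in JBlyp/lyp. Intestinal markers had 9 common falls of 19 (6 to 8 with 1 array left out), led by the lectin gene Lgals4 at -2.02 and the peptidase gene Anpep at -1.76. The mean RMA level of the intestinal list was 4.77 to 4.84 on the 6 BB arrays, 4.96 to 5.03 in F344 and 5.69 to 5.77 in F344lyp islets. Its step was thus mostly between F344lyp and all other groups. Mesothelial markers had 1 common rise and 1 fall of 10, with medians of 2.35 in DR+/+, -0.05 in JB and -0.36 in JBlyp/lyp. Leaving out any of 4 single arrays (JBlyp/lyp replicate 2, JB replicate 2, F344lyp replicate 1, F344 replicate 1) took the rise to 0, and the falls were 3 without DR+/+. Nerve markers had 2 common rises (0 to 3 with 1 array left out) and 1 fall of 8, and erythroid markers 1 rise of 5 (0 to 1). When group entered as a random block the calls of Sox17, Erg, Plvap, Vwf and Lgals4 ended (adjusted p between 0.0555 and 0.0852).

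Cell cycle genes had 13 common falls and 2 rises of 41 (11 to 16 falls and 0 to 2 rises with 1 array left out). Cdc20, an activator of mitotic exit, fell by 1.26 (SE 0.12, adjusted p = 5.25e-05), and Top2a, a topoisomerase of dividing cells, fell by 0.62 (SE 0.10, adjusted p = 0.00104). Junction and adhesion genes had 5 common rises (3 without DR+/+ replicate 2, 2 without DR+/+) and 7 falls (15 without DR+/+) of 35. Gjb2, a gap junction protein of acinar cells, was at 4.96 and 4.62 in DR+/+, 5.00 and 5.13 in JB and 4.92 and 5.08 in JBlyp/lyp islets, against 5.91 and 5.93 in F344 and 8.38 and 8.53 in F344lyp islets, and Dsp, a plaque protein of desmosomes, had 9.52 and 9.21 in DR+/+, 9.37 and 9.44 in JB and 9.58 and 9.66 in JBlyp/lyp islets, against 8.10 and 8.12 in F344 and 8.43 and 8.44 in F344lyp islets. All BB arrays lay below all F344 arrays for Gjb2 and above them for Dsp, and F344lyp was the highest group for Gjb2. Dsp rose by 1.19 (SE 0.09, adjusted p = 2.04e-05). With group as a random block the call of Top2a ended (adjusted p = 0.0833).

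**Figure D4:**
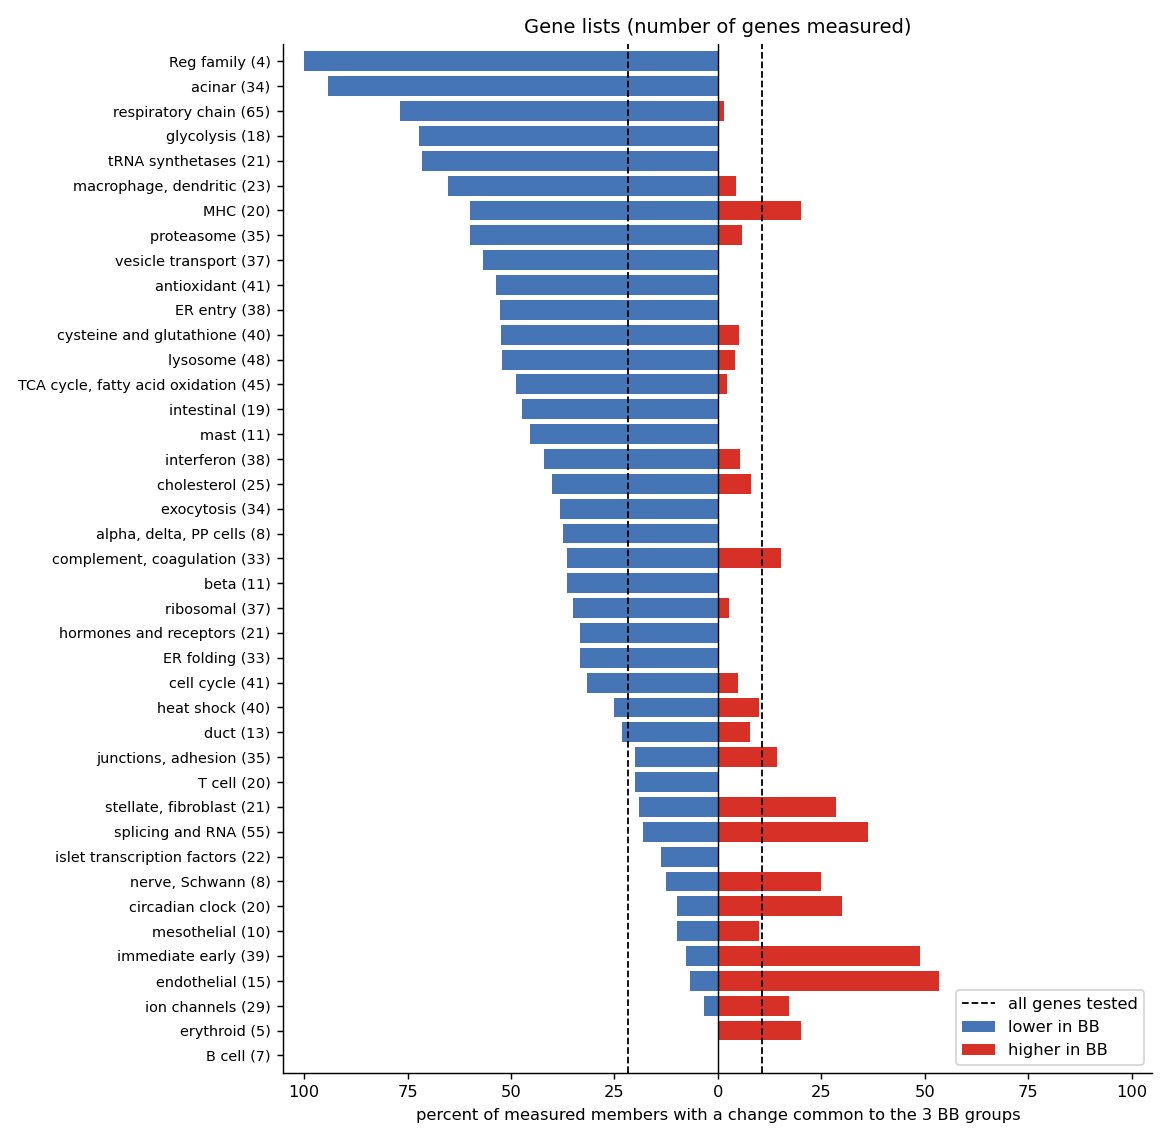
Percent of the measured members of each gene list with a change common to the 3 BB groups, lower in BB to the left and higher to the right, with the number of genes measured in brackets. Dashed lines give the share of all genes tested, 21.7% lower and 10.6% higher. Acinar (32 of 34) and Reg genes (4 of 4) reach furthest left, and endothelial (8 of 15) and immediate early genes (19 of 39) furthest right.

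**Figure D5:**
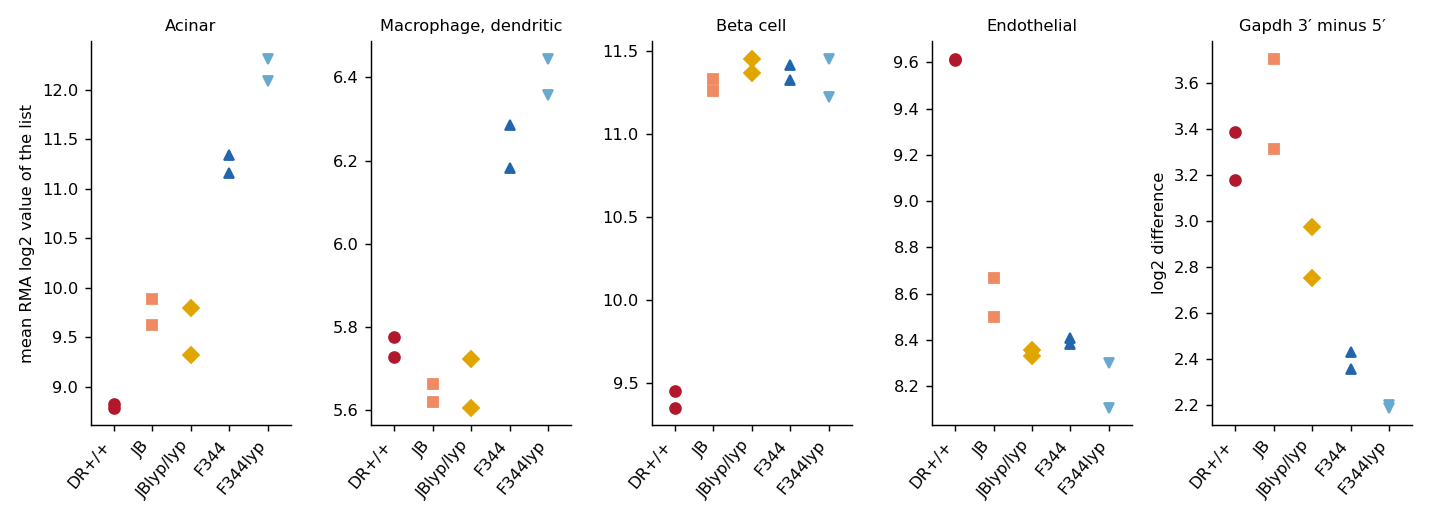
Mean RMA log2 value of 4 marker lists on each of the 10 arrays, and the 3′ minus 5′ log2 difference of the Gapdh control probe sets, with the BB groups left of the F344 groups and 2 points per group. Acinar and macrophage levels are lower in all BB arrays, beta cell and endothelial levels set DR+/+ apart, and the Gapdh difference is higher in all BB arrays (2.75 to 3.71, against 2.19 to 2.43).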

How the data were processed

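Islet RNA of 5 groups, 2 arrays each, was measured on Affymetrix arrays. The deposited values are log2 expression values per probe set, which the authors made with RMA and GCOS, as the submitters' processing notes have it, with no versions named in the labels. Of 31099 probe sets, 57 controls were left out. RMA compresses low signals, and the number of arrays limits the precision. The members and gene lists were chosen with earlier results of these data known. A group-means model was fitted with limma 3.58.1 in R 4.3.3 to all 31042 probe sets, and p-values were adjusted by Benjamini-Hochberg over all of them with a threshold of 0.05. The model had 5 residual degrees of freedom and 4.72 from the prior. Nothing states that replicates came from separate animals, so p-values measure only the spread between these samples. Probe sets were named from the platform annotation, in which 20826 have 1 symbol, 436 several and 9780 none. The named genes were the 15 with the largest smallest-group change each way, 8 each way whose probe sets agree in direction, and up to 5 per list. All of these were drawn from changes called in each BB group whose BB arrays lay apart from the F344 arrays. Their separate arrays are thus a condition of selection and no further result. Promoters came from RefSeq (GRCr8). The code was tested on simulated data. Alternatives were the error term, the prior, a filter on dim probe sets, the normalization, a fold minimum, a Gapdh covariate, a replicate block and arrays left out. 1 gene is not reported here.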

Additional observations from a re-analysis of the deposited data

Results flagged for a closer look

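For 16 of the 30 genes with the largest common changes, the difference from F344 was unequal among DR+/+, JB and JBlyp/lyp by limma's F test with adjustment over all probe sets. The distance between the largest and the smallest of the 3 group differences (log2) is given here. Among the falls it was 2.73 for Reg3a (adjusted p = 2.44e-05), 2.15 for Serpini2 (0.0004), 2.04 for Prss3bl1 (0.00169), 1.87 for Reg1a (0.00489) and 1.67 for Prss3 (0.00129). It was 1.58 for Klk1b3 (adjusted p = 0.00677), 1.49 for Pdia2 (0.00361), 1.15 for Reg3b (0.00462), 1.04 for Ang (0.0119), 0.762 for Cuzd1 (0.0157) and 0.752 for Spink1l (0.0232). Among the rises it was 1.54 for RT1-T24-4 (adjusted p = 0.00755), 1.43 for Fam111a (0.000122), 1.24 for Cyp4v3 (0.00335), 0.744 for Nom1 (0.00381) and 0.722 for Ccdc77 (0.0251). Outside the expression comparisons, the Gapdh control probe sets had a 3′ minus 5′ difference 0.926 higher in the BB groups than in the F344 groups.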

How the results depend on the processing

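The count for BB against F344 was 10300. It was 3518 with 2 means only, 959 with group as a random block, 8 with the Gapdh covariate and 1619 at a log2 difference of at least 1. With the Gapdh covariate, DR+/+ had 12 calls, JB 1 and JBlyp/lyp 128, with 8 common changes and 1 called in each group. At a log2 difference of at least 1, DR+/+ had 5174, JB 1780 and JBlyp/lyp 1263, with 1561 common changes and 523 called in each group. Without the DR+/+ arrays 3200 were called in each remaining group, and the JB to JBlyp/lyp difference had 0 calls in limma (1853 at an unadjusted p under 0.05), and 15 with the replicate block as well (2739 at an unadjusted p under 0.05), a fit added after seeing the data. With 1 array left out, BB against F344 ranged over 6742 to 11310, common changes over 5969 to 9441, those called in each group over 1027 to 2298, DR+/+ over 9240 to 13732, JB over 3717 to 7313, JBlyp/lyp over 2273 to 5340 and differences among BB groups over 5864 to 10066. The lone array of a group was then assumed to vary like the other groups. Nothing in the labels says that a replicate number marks a shared batch or litter, and deviations of 5 of 10 same-number pairs correlated over 0.1 (-0.10 to 0.65). JB and JBlyp/lyp of the same number did deviate together (0.65), and each JB array was closest to the JBlyp/lyp array of its number, a hint from the data and not from the design. With the replicate block, 11239 probe sets were called for BB against F344, 9470 were common and 2569 were called in each group. Among the named genes, 4 values changed sign. Ins1 was 0.025 and Gimap5 -0.31 without the DR+/+ arrays, and with the Gapdh covariate Sod3 was 0.41 and Gimap5 -1.11. The cause was not tested.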
